A study of Mus musculus with 8 samples.

Results

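Cholesterol synthesis was followed through 8 genes in clones of 32D, a mouse myeloid cell line that grows on interleukin-3 (IL-3). The genes were Srebf2, Insig1, Hmgcs1, Idi1, Fdft1, Sqle, Lss and Cyp51, chosen by name as SREBP-2 and its sterol targets, and all 8 were found among the 56748 genes of the deposited table. They cover synthesis and its control, while the main receptor of lipoprotein uptake is not analysed here. The cells had been transduced with murine Jak2WT or Jak2V617F, the activated form of the JAK2 kinase found in myeloproliferative neoplasms. CRISPR-Cas9 editing of Slc2a1 (GLUT1) and Slc2a3 (GLUT3) and growth from single cells then gave GLUT1/3 double knockout (dKO) clones. Beside them stood GLUT1/3 WT clones, listed with no edit in either gene. The 4 groups were Jak2WT GLUT1/3 WT, Jak2WT GLUT1/3 dKO, Jak2V617F GLUT1/3 WT and Jak2V617F GLUT1/3 dKO, each with 2 clones, numbered 1 and 3, and 1 library per clone. Every clone had spent 24 h in 5 mM glucose, 1 mM glutamine, 10% serum and 2 ng/ml IL-3 before its RNA was taken. A clone descends from 1 cell, so that a difference between groups of 2 clones also carries what set those cells apart.

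Cells make cholesterol from acetyl-CoA through mevalonate, the isoprenoid pyrophosphates, squalene and lanosterol. The pathway is controlled by SREBP-2, a transcription factor made as a membrane protein of the endoplasmic reticulum. When sterols are low, the escort protein SCAP carries it to the Golgi, where a pair of proteases release the part that enters the nucleus, and when sterols are high INSIG proteins hold SCAP and SREBP-2 back. Transcripts of the synthesis enzymes, of SREBP-2 itself and of INSIG1 are known to rise and fall with this factor. Growing cells draw on the pathway for membranes and for the isoprenoids that anchor small GTPases.

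Levels are given in FPKM, the fragments on a gene per kilobase of its length, scaled by a total for the library. The 8 libraries held 16846011 to 48884329 reads on genes, and the 8 genes held 689 to 10551 reads each per library, so that counting alone gave an error of at most 3.81% of a level. The targets of the knockout were read first. Slc2a1 averaged 46.6 FPKM in Jak2WT GLUT1/3 WT and 9.32 in Jak2WT dKO, and 58.5 and 15.01 in the Jak2V617F groups. Slc2a3 averaged 182 FPKM in Jak2V617F GLUT1/3 WT and 36.0 in Jak2V617F dKO (adjusted p = 0.0115). In Jak2WT it averaged 94.8 and 32.8 FPKM and did not pass the threshold (adjusted p = 0.0612), and the dKO clones 1 and 3 stood at 16.03 and 49.5 FPKM, both below the GLUT1/3 WT clones at 97.7 and 91.9. Of 8 markers of IL-3-dependent myeloid cells, 5 reached 1 FPKM (Ptprc, Spi1, Prtn3, Csf2rb and Il3ra), Kit and Cebpa were at 0 in every library and Mpo stayed at or below 0.0885 FPKM. All 13 markers of T cells, B cells, fibroblasts and epithelium lay below 1 FPKM. The summed FPKM of 10 erythroid markers, 7 of which reached 1 FPKM and none of which was at 0 in all libraries, was 92.9 to 111 in Jak2WT GLUT1/3 WT, 245 to 290 in Jak2WT dKO, 553 to 909 in Jak2V617F GLUT1/3 WT and 2580 to 4676 in Jak2V617F dKO. The globin genes Hba-a1, Hba-a2, Hbb-bs and Hbb-bt made up 50.3% to 60.3% of that sum in Jak2WT GLUT1/3 WT and 83.2% to 98.5% in the other groups, and the remaining 6 markers summed to 44.1 to 46.2, 41.2 to 46.1, 64.7 to 80.02 and 57.1 to 69.7 FPKM in the same order of groups, higher in all 4 Jak2V617F libraries than in all 4 Jak2WT libraries. Of the other markers with GLUT1/3 loss in Jak2V617F, Gata1, an erythroid transcription factor, fell by 0.50 (adjusted p = 0.0246), Epb42 differed by -0.23 (adjusted p = 0.119) and Klf1, also an erythroid transcription factor, rose by 0.62 (adjusted p = 0.0418). The sum of the 8 myeloid markers was 219 to 247, 160 to 197, 196 to 201.4 and 89.1 to 91.8 FPKM in the same order. The part of these shifts in the results below was not tested, and in bulk RNA fewer cells of a type cannot be told apart from less RNA per cell.

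All 8 genes were expressed at a moderate level, from 4.99 FPKM for Lss in a Jak2V617F dKO clone to 40.8 FPKM for Srebf2 in a Jak2WT GLUT1/3 WT clone. Per length of gene, Srebf2, Idi1, Sqle and Hmgcs1 had the highest means over all libraries, at 31.3, 28.8, 21.5 and 20.6 FPKM, followed by Cyp51 at 17.2, Insig1 at 12.3, Fdft1 at 10.4 and Lss at 6.25. This order differed between groups, with Hmgcs1 second at 31.3 FPKM in Jak2WT GLUT1/3 WT and Idi1 at 29.3 above Srebf2 at 25.6 in Jak2V617F dKO. The mean of Jak2WT GLUT1/3 WT was the highest of the 4 groups for every one of the 8 genes. For 7 of them both clones of this group also lay above all 6 other libraries, the exception being Idi1. The share of all genes with such an order was not counted. The range across libraries was widest for Hmgcs1, whose highest level was 2.87 times its lowest, and for Cyp51 at 2.74 times, and narrowest for Idi1 at 1.48 times.

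**Figure D1:**
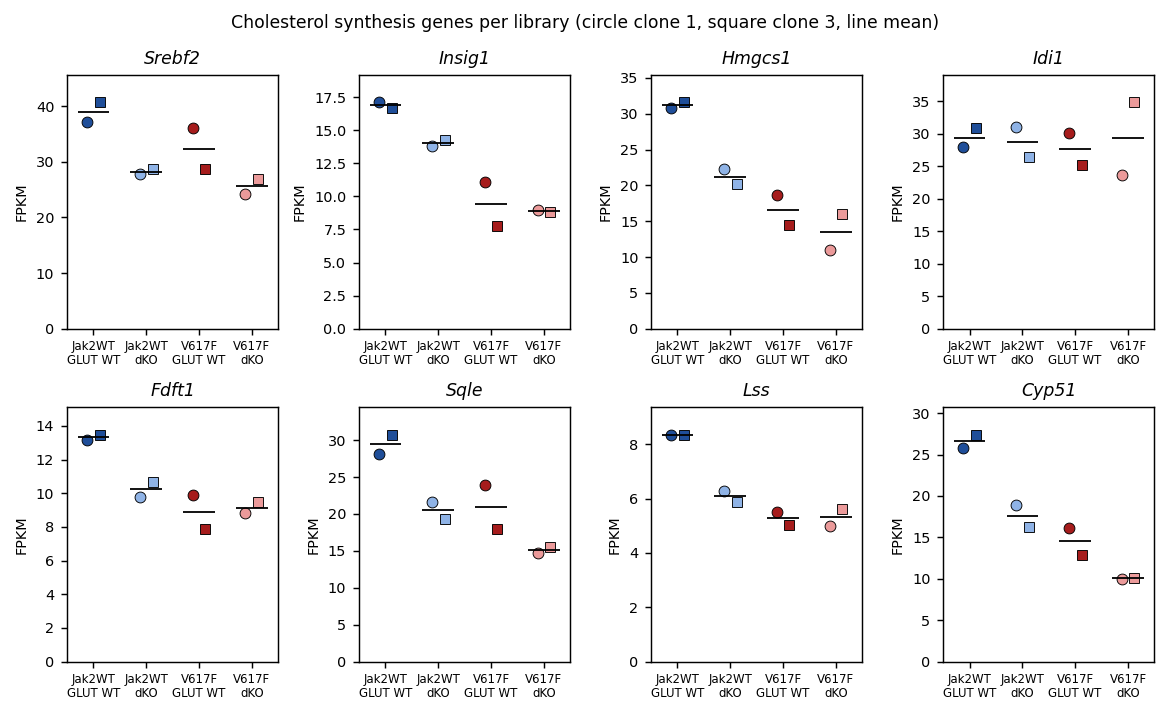
FPKM of each of the 8 genes in the 8 libraries, with 1 panel per gene, circles for clone 1, squares for clone 3 and a line at the mean of each group. Both Jak2WT GLUT1/3 WT clones are the highest points in every panel except that of Idi1, and Cyp51 steps down from 26.6 to 17.6, 14.5 and 10.0 FPKM over the 4 groups.

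Srebf2 (ENSMUSG00000022463, chromosome 15 from 82031382 to 82089580 on the forward strand of mm39) encodes SREBP-2. It stood at 37.1 and 40.8 FPKM in Jak2WT GLUT1/3 WT clones 1 and 3, at 27.8 and 28.7 in Jak2WT dKO, at 36.1 and 28.6 in Jak2V617F GLUT1/3 WT and at 24.1 and 27.0 in Jak2V617F dKO. The Jak2WT GLUT1/3 WT clones were the highest and the Jak2V617F dKO clones the lowest, while the ranges of the other 2 groups overlapped. Insig1 (ENSMUSG00000045294, chromosome 5 from 28276361 to 28283660, forward strand) encodes a protein that retains SCAP in the endoplasmic reticulum. Its levels were 17.1 and 16.6 FPKM in Jak2WT GLUT1/3 WT, 13.8 and 14.2 in Jak2WT dKO, 11.1 and 7.79 in Jak2V617F GLUT1/3 WT and 8.97 and 8.83 in Jak2V617F dKO. All 4 Jak2WT libraries therefore lay above all 4 Jak2V617F libraries, and within Jak2V617F the groups overlapped.

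Promoters from RefSeq (build GRCm38.p6, matched exactly to GRCm39) were read for 6 of the 8 genes, over the 250 bases before the start of transcription on both strands, to show which carry the known sequence elements of the pathway. One element searched was TCACNCCA, the core of the sterol regulatory element of the SREBP factors, which 3.67% of 32851 promoters held. The other was CCAAT, the box bound by NF-Y, a common partner of SREBP-2, which 33.8% held. Srebf2 and Hmgcs1 held the first, at 162 to 155 and at 137 to 130 bases before the start, and all 6 genes held the second, with no overlap between matches of the pair of elements. A match describes these letters in this window and is not evidence of binding. The stretches with the matches in capitals, where they lie outside the listed gene, are as follows for Srebf2, Insig1, Hmgcs1 and Lss, all on the forward strand and 5′ to 3′ with coordinates of GRCm39, and with CCAAT seen as ATTGG where it lies on the other strand.
Srebf2 (chr15:82031293-82031354): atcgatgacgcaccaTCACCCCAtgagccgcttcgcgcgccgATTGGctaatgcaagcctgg
Insig1 (chr5:28276160-28276219): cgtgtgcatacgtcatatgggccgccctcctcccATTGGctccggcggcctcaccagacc
Hmgcs1 (chr13:120151637-120151861): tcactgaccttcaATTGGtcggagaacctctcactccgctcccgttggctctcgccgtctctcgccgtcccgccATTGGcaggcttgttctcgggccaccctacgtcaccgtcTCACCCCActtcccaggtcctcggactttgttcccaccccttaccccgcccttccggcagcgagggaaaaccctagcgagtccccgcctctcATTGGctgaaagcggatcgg
Lss (chr10:76367337-76367396): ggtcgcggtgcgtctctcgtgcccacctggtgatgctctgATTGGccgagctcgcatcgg

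Hmgcs1 (ENSMUSG00000093930, chromosome 13 from 120151915 to 120169796, forward strand) encodes the synthase that joins acetyl-CoA units into HMG-CoA at the entry to the mevalonate pathway. Its levels were 30.8 and 31.7 FPKM in Jak2WT GLUT1/3 WT, 22.3 and 20.2 in Jak2WT dKO, 18.7 and 14.4 in Jak2V617F GLUT1/3 WT and 11.1 and 16.1 in Jak2V617F dKO. The Jak2WT groups were apart from each other and above the Jak2V617F groups, which overlapped. Idi1 (ENSMUSG00000058258, chromosome 13 from 8935537 to 8942487, forward strand) encodes the isomerase that converts the isoprenoid building blocks into each other. It read 27.9 and 30.8 FPKM in Jak2WT GLUT1/3 WT, 31.1 and 26.4 in Jak2WT dKO, 30.2 and 25.2 in Jak2V617F GLUT1/3 WT and 23.6 and 34.9 in Jak2V617F dKO. No group of Idi1 was apart from another, and its lowest and its highest library were the 2 Jak2V617F dKO clones.

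Fdft1 (ENSMUSG00000021273, chromosome 14 from 63382599 to 63417027, reverse strand) encodes squalene synthase, which commits isoprenoids to sterols. It was at 13.1 and 13.5 FPKM in Jak2WT GLUT1/3 WT, 9.78 and 10.7 in Jak2WT dKO, 9.90 and 7.86 in Jak2V617F GLUT1/3 WT and 8.81 and 9.50 in Jak2V617F dKO. Apart from the high Jak2WT GLUT1/3 WT clones, its libraries spanned a narrow range. Sqle (ENSMUSG00000022351, chromosome 15 from 59186926 to 59203041, forward strand) encodes squalene epoxidase, a step that uses oxygen and is known to limit the rate. Its levels were 28.1 and 30.8 FPKM in Jak2WT GLUT1/3 WT, 21.6 and 19.4 in Jak2WT dKO, 24.0 and 18.0 in Jak2V617F GLUT1/3 WT and 14.7 and 15.5 in Jak2V617F dKO. In both backgrounds its dKO clones lay below its GLUT1/3 WT clones, and across backgrounds Jak2WT dKO and Jak2V617F GLUT1/3 WT overlapped.

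Lss (ENSMUSG00000033105, chromosome 10 from 76367422 to 76392972, forward strand) encodes the cyclase that folds the squalene epoxide into lanosterol, the first sterol. It was at 8.35 and 8.36 FPKM in Jak2WT GLUT1/3 WT, 6.29 and 5.87 in Jak2WT dKO, 5.50 and 5.04 in Jak2V617F GLUT1/3 WT and 4.99 and 5.62 in Jak2V617F dKO. Its Jak2WT GLUT1/3 WT clones were alike and highest, and its Jak2V617F groups overlapped. Cyp51 (ENSMUSG00000001467, chromosome 5 from 4131145 to 4154746, reverse strand) encodes the cytochrome P450 that removes a methyl group from lanosterol. It read 25.8 and 27.4 FPKM in Jak2WT GLUT1/3 WT, 18.9 and 16.3 in Jak2WT dKO, 16.1 and 12.9 in Jak2V617F GLUT1/3 WT and 10.0 and 10.1 in Jak2V617F dKO. Cyp51 was the one gene of the 8 whose 4 groups followed each other without overlap. Fdft1 and Cyp51 overlap expressed genes of the opposite strand, Ctsb at 21.2 to 37.0 FPKM and Akap9 at 4.54 to 8.13 FPKM, and since the strand setting of the counting is not given in the sources used here, reads of these pairs may be shared.

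With loss of GLUT1/3 in Jak2WT cells, 3 of the 8 genes fell, namely Cyp51, Sqle and Lss. Cyp51 fell by 0.58 on the log2 scale (SE 0.12, adjusted p = 0.0235), Sqle fell by 0.50 (SE 0.13, adjusted p = 0.0486) and Lss fell by 0.40 (SE 0.088, adjusted p = 0.0275), while 0 of the 8 genes rose. Srebf2, the regulator, differed by -0.45 (SE 0.12, adjusted p = 0.0504), Hmgcs1 by -0.54 (SE 0.18, adjusted p = 0.0844), Fdft1 by -0.35 (SE 0.11, adjusted p = 0.0784) and Insig1 by -0.25 (SE 0.14, adjusted p = 0.255), none past the threshold. The dKO clones of all these 7 genes lay below the GLUT1/3 WT clones without overlap, and Idi1 differed by -0.033 with a 95% interval from -0.46 to 0.40. The share of all genes with clones apart in this way was not counted, so that the separation is a description only. Differences are from limma, fitted on log2(FPKM + 1) over 11818 genes, with Benjamini-Hochberg adjusted p-values and a threshold of 0.05, and an exact permutation test of 2 clones against 2 cannot give a p below 0.33. The median of the 8 genes was -0.43, beside 0.0082 over all genes tested, and 6.06% of all genes were called lower and 7.62% higher. At an unadjusted p under 0.05, 6 genes were lower and 0 higher, as with limma-voom on recovered reads. Of all genes, limma-voom called 1201 lower and 1252 higher, and a count at the unadjusted p was not made. The count of 3 was 0 without any 1 of the 4 libraries compared and 5 without either Jak2V617F GLUT1/3 WT clone. Leaving out a library of the groups compared also cut the calls over all genes, so that the drop is not particular to the members. Of the erythroid markers 2 of 7 tested, both globin genes, were higher and 0 lower in these dKO clones, and of the myeloid markers 1 of 5, Ptprc, was lower and 0 higher, and their part was not tested.

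With loss of GLUT1/3 in Jak2V617F cells, 2 of the 8 genes fell, namely Cyp51 and Sqle. Cyp51 fell by 0.48 (SE 0.12, adjusted p = 0.0214) and Sqle fell by 0.44 (SE 0.13, adjusted p = 0.0457), and both had dKO clones below all GLUT1/3 WT clones. Srebf2 was also apart, at -0.32 (SE 0.12, adjusted p = 0.0843). The other 5 genes overlapped between the groups, and the share of all genes with clones apart was not counted here either. Hmgcs1 differed by -0.28, Insig1 by -0.056, Lss by 0.0072, Fdft1 by 0.046 and Idi1 by 0.057, with adjusted p from 0.269 to 0.962. For Lss the 95% interval of the difference ran from -0.20 to 0.21, and for Fdft1 from -0.22 to 0.31. Thus 2 of 8 genes were lower and 0 higher, where 16.2% of all genes were called lower and 13.7% higher, and the median of the 8 was -0.17 beside -0.019 over all genes. The unadjusted p was under 0.05 for 3 genes lower and 0 higher, and limma-voom called 2 lower and 0 higher. Of all genes, limma-voom called 2009 lower and 1928 higher. The count was 0 without Jak2V617F GLUT1/3 WT clone 1 or either Jak2V617F dKO clone, 3 without Jak2V617F GLUT1/3 WT clone 3 and 1 without any of the 4 Jak2WT libraries, where Sqle passed the threshold no longer and Cyp51 still did. Of 7 erythroid markers tested, 5 were higher and 1 lower in these dKO clones, with the sum at 553 to 909 FPKM in GLUT1/3 WT and 2580 to 4676 in dKO. Of 5 myeloid markers, 3 were lower and 0 higher, Ptprc at -1.66 (adjusted p = 0.00036), Csf2rb at -1.29 (adjusted p = 0.00126) and Spi1 at -0.59 (adjusted p = 0.0124), and the part of these markers was not tested.

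Jak2V617F and Jak2WT cells with intact transporters differed in most of the 8 genes. Hmgcs1 fell by 0.89 (SE 0.18, adjusted p = 0.00987), Cyp51 fell by 0.84 (SE 0.12, adjusted p = 0.0029) and Insig1 fell by 0.80 (SE 0.14, adjusted p = 0.00592) in Jak2V617F. Smaller differences past the threshold were those of Lss, which fell by 0.58 (SE 0.088, adjusted p = 0.00373), of Fdft1, which fell by 0.54 (SE 0.11, adjusted p = 0.0111), and of Sqle, which fell by 0.48 (SE 0.13, adjusted p = 0.0327). The regulator Srebf2 differed by -0.27 (SE 0.12, adjusted p = 0.134), although its clones were apart, and Idi1 by -0.085 (SE 0.18, adjusted p = 0.756). In all, 6 of 8 genes were lower and 0 higher, where 14.9% of all genes were called lower and 15.3% higher. Their median of -0.56 stands beside 0.0076 over all genes. At the unadjusted threshold and with limma-voom, 6 were again lower and 0 higher. Of all genes, limma-voom called 1992 lower and 1907 higher. The count was 4 and 3 without Jak2WT GLUT1/3 WT clones 1 and 3, and 7 and 5 without Jak2V617F GLUT1/3 WT clones 1 and 3, while Cyp51, Lss and Insig1 passed the threshold under every alternative tried. Of 7 erythroid markers tested, 5 were higher in Jak2V617F and 0 lower, which were 3 globin genes, Gata1 at 0.81 (adjusted p = 0.00423) and Epb42 at 0.76 (adjusted p = 0.00231). Of 5 myeloid markers, 2 were higher and 0 lower, Ptprc at 0.36 (adjusted p = 0.0443) and Il3ra at 0.35 (adjusted p = 0.0251), and the part of these markers was not tested.

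Among the dKO clones, Jak2V617F stood below Jak2WT for Cyp51 and Insig1. Cyp51 fell by 0.75 (SE 0.12, adjusted p = 0.00735) and Insig1 fell by 0.60 (SE 0.14, adjusted p = 0.0264). Hmgcs1 differed by -0.63 (SE 0.18, adjusted p = 0.0504) and Sqle by -0.41 (SE 0.13, adjusted p = 0.0778). Srebf2, Fdft1 and Lss differed by -0.14, -0.15 and -0.17, with adjusted p from 0.232 to 0.469, and Idi1 by 0.0052, with a 95% interval from -0.42 to 0.43. The clones of 7 genes were apart, Idi1 being the exception, and the share of all genes with clones apart was not counted. The 2 genes lower and 0 higher compare with 9.96% and 7.12% of all genes, and the median of the 8 was -0.29 beside -0.023 over all genes. At an unadjusted p under 0.05, 4 were lower and 0 higher, as with limma-voom. Of all genes, limma-voom called 1422 lower and 1236 higher. The count fell to 0 without Jak2WT dKO clone 1, to 1 without Jak2WT dKO clone 3, Jak2V617F dKO clone 1 or either Jak2WT GLUT1/3 WT clone, and rose to 4 without either Jak2V617F GLUT1/3 WT clone. In Jak2V617F 6 of 7 erythroid markers were higher and 0 lower, with a median difference of 2.73, and 2 of 5 myeloid markers were lower and 0 higher, Csf2rb at -1.31 (adjusted p = 0.00203) and Ptprc at -0.78 (adjusted p = 0.00488), and their part was not tested. The 2 dKO comparisons and the 2 background comparisons share libraries, so that their values stand side by side and are not independent.

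**Figure D2:**
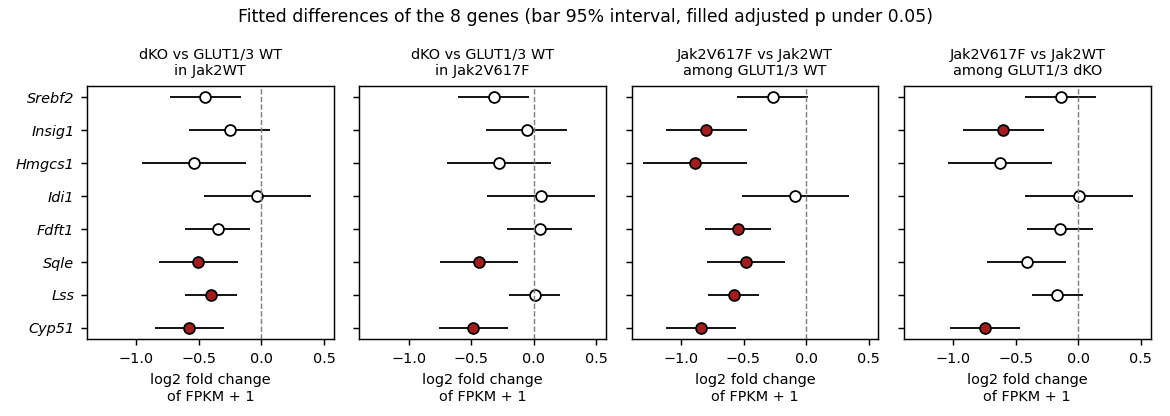
Fitted log2 difference of FPKM + 1 for the 8 genes in the 4 comparisons, with bars for the 95% interval and filled points for an adjusted p under 0.05. Cyp51 is filled in all 4 panels, Idi1 lies near 0 in all 4, and 6 genes are filled in the comparison of Jak2V617F with Jak2WT among GLUT1/3 WT clones.

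Whether the effect of GLUT1/3 loss differed between backgrounds was tested as an interaction. None of the 8 genes passed, with limma calling 0 higher and 0 lower against 4.72% and 5.91% of all genes. The largest differences were those of Lss at 0.41 (SE 0.12, adjusted p = 0.0767) and Fdft1 at 0.40 (SE 0.16, adjusted p = 0.143), both toward a higher value in Jak2V617F. These 2 genes were higher and 0 lower at an unadjusted p under 0.05, and limma-voom called Lss higher (adjusted p = 0.0287). Of all genes, limma-voom called 919 higher and 895 lower. With libraries scaled to the same total limma called both higher, and the calls over all genes went from 558 higher and 698 lower to 1177 and 393. The other 6 genes lay between 0.066 for Sqle and 0.26 for Hmgcs1. For Cyp51 the difference of 0.093 had a 95% interval from -0.30 to 0.49. The median of the 8 was 0.16 beside -0.039 over all genes.

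Over the 8 libraries, 7 of the genes moved closely together and Idi1 stood aside. The 21 pairs without Idi1 had a Pearson r between 0.67 and 0.966 with a median of 0.905 on log2(FPKM + 1), Sqle with Cyp51 being the highest and Srebf2 with Insig1 the lowest. The 7 pairs with Idi1 had an r between 0.191 and 0.422 with a median of 0.31. These values describe 8 points that share 4 groups and the scaling of each library. Averaged over the 8 genes after centring each, the libraries lay at 0.39 and 0.46 on the log2 scale in Jak2WT GLUT1/3 WT, 0.072 and -0.0026 in Jak2WT dKO, 0.018 and -0.29 in Jak2V617F GLUT1/3 WT and -0.41 and -0.23 in Jak2V617F dKO. Jak2V617F GLUT1/3 WT clone 1 thus lay within the range of Jak2WT dKO, and clone 3 within that of Jak2V617F dKO.

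A list of 13 other synthesis enzymes was read beside the 8 genes, of which 12 passed the expression filter and Fdps, listed at 0.233 to 0.973 FPKM, did not. With GLUT1/3 loss in Jak2WT, 4 of 12 fell and 0 rose, where 6.06% of all genes were called lower and 7.62% higher, against 6 and 0 both at an unadjusted p under 0.05 and with limma-voom. Both kinases of the mevalonate branch were among them, Pmvk at -0.95 (adjusted p = 0.00755) and Mvk at -0.67 (adjusted p = 0.0141), with the late enzymes Nsdhl at -0.55 (adjusted p = 0.0305) and Lbr at -0.47 (adjusted p = 0.0288). Pmvk stood at 16.1 and 14.7 FPKM in Jak2WT GLUT1/3 WT, 7.42 and 7.62 in Jak2WT dKO, 13.1 and 10.8 in Jak2V617F GLUT1/3 WT and 5.93 and 7.55 in Jak2V617F dKO, so that its dKO clones of either background lay below all GLUT1/3 WT clones. With GLUT1/3 loss in Jak2V617F, 2 of 12 fell and 1 rose, beside 16.2% lower and 13.7% higher of all genes. Pmvk fell by 0.74 (adjusted p = 0.00569) and Mvd, the decarboxylase of the same branch, fell by 0.47 (adjusted p = 0.03), while Acat2, the thiolase that makes acetoacetyl-CoA, rose by 0.87 (adjusted p = 0.0322). The Mvd call was lost under 9 of 18 alternatives, with an adjusted p of up to 0.111, and the Acat2 call under 8 of 18.

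Between the backgrounds with intact transporters, 7 of the 12 enzymes were lower in Jak2V617F and 0 higher, where 14.9% of all genes were lower and 15.3% higher, against 8 and 0 both at an unadjusted p under 0.05 and with limma-voom. Acat2 differed by -1.43 (adjusted p = 0.00518), Dhcr7, the reductase that completes cholesterol, by -1.20 (adjusted p = 0.00273), Nsdhl by -0.74 (adjusted p = 0.00531) and Mvk by -0.72 (adjusted p = 0.00463). Dhcr7 was at 8.36 and 8.73 FPKM in Jak2WT GLUT1/3 WT, 5.46 and 5.48 in Jak2WT dKO, 3.62 and 2.73 in Jak2V617F GLUT1/3 WT and 3.13 and 4.76 in Jak2V617F dKO, the last 2 groups overlapping. Among dKO clones, where 9.96% of all genes were lower and 7.12% higher, 1 enzyme was lower and 0 higher, the C4-methyl oxidase Msmo1 at -0.62 (adjusted p = 0.0476), with 4 lower and 0 higher at an unadjusted p under 0.05 and 1 and 0 with limma-voom. The Msmo1 call was lost under 13 of 18 alternatives, with an adjusted p of 0.202 without Jak2WT dKO clone 1. The medians of the 12 were -0.33 and 0.018 for GLUT1/3 loss in Jak2WT and Jak2V617F, and -0.37 and -0.14 between the backgrounds in GLUT1/3 WT and dKO clones, beside the medians of all genes given above.

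**Figure D3:**
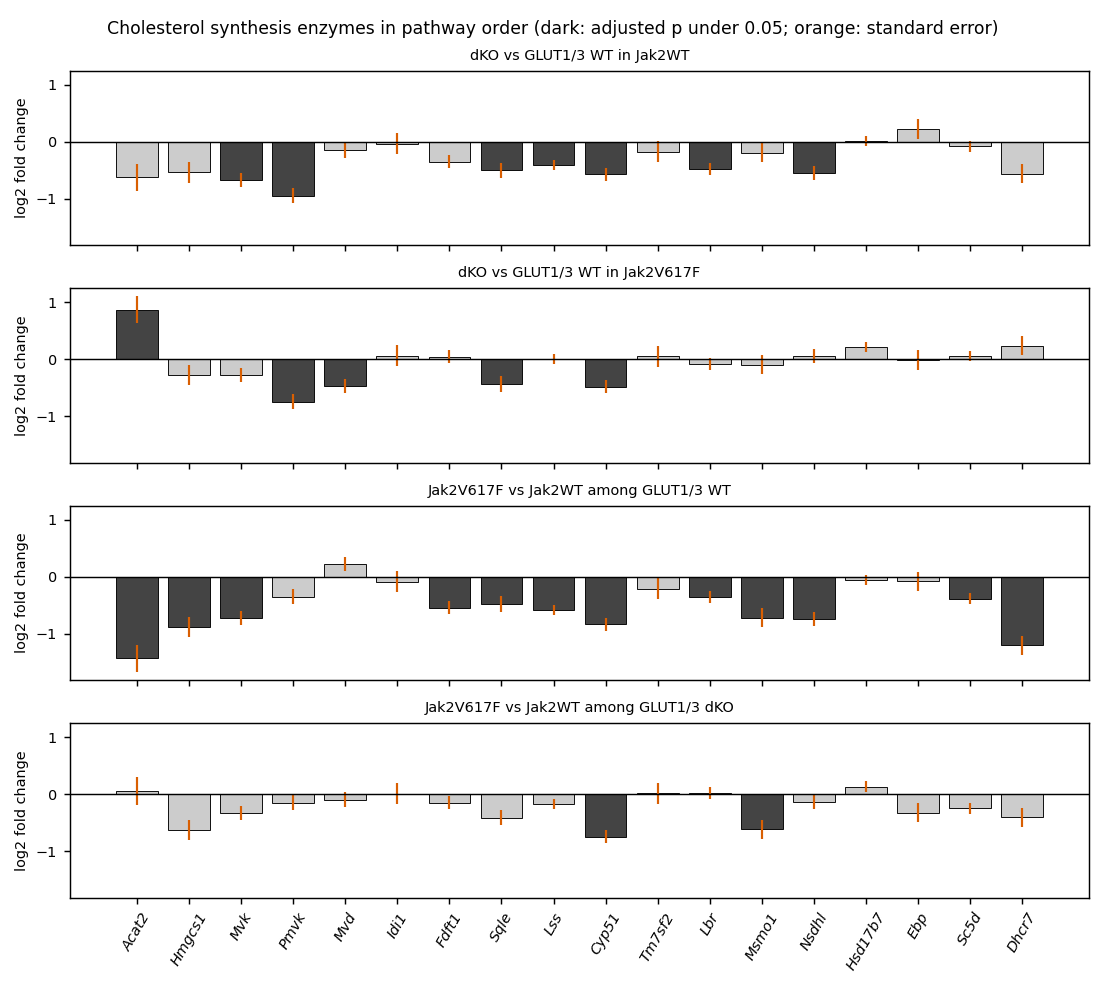
Log2 fold change of FPKM + 1 for 18 synthesis enzymes in pathway order from Acat2 to Dhcr7, with 1 panel per comparison, dark bars for an adjusted p under 0.05 and orange lines for the standard error. Dark bars point down in every panel except for Acat2, which rose by 0.87 with GLUT1/3 loss in Jak2V617F.

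Genes that control SREBP processing made up a list of 7, all tested. Of these, 2 fell and 0 rose with GLUT1/3 loss in Jak2WT, Insig2 at -0.60 (adjusted p = 0.0094) and Srebf1, which encodes the SREBP-1 of fatty acid synthesis, at -0.44 (adjusted p = 0.0299). In Jak2V617F 3 fell and 0 rose with GLUT1/3 loss. These were Mbtps2 at -0.87 (adjusted p = 0.000695) and Mbtps1 at -0.55 (adjusted p = 0.00264), the proteases that release SREBP, and Insig2 at -0.72 (adjusted p = 0.00168). Between the backgrounds in GLUT1/3 WT clones, Mbtps2 rose by 0.54 (adjusted p = 0.0037) and Mbtps1 rose by 0.24 (adjusted p = 0.0491) in Jak2V617F, and Srebf1 fell by 0.74 (adjusted p = 0.00247). The call for Mbtps1 was lost under 12 of 18 alternatives, with an adjusted p of 0.295 when libraries were scaled to the same total, and that for Mbtps2 under none. Among dKO clones Mbtps1 alone of the 7 passed, at -0.41 (adjusted p = 0.013), as it did alone at an unadjusted p under 0.05 and with limma-voom. At an unadjusted p under 0.05, 2 rose with GLUT1/3 loss in Jak2WT and 1 in Jak2V617F, and limma-voom called 1 higher in each. Over the same comparisons 6.06% of all genes were lower and 7.62% higher in Jak2WT, and 16.2% and 13.7% in Jak2V617F. Between the backgrounds the shares of all genes lower and higher were 14.9% and 15.3% in GLUT1/3 WT clones and 9.96% and 7.12% in dKO clones. The medians of the 7 were 0.10 and 0.096 for GLUT1/3 loss in Jak2WT and Jak2V617F, and 0.20 and 0.014 between the backgrounds in GLUT1/3 WT and dKO clones.

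Mbtps2 stood at 6.51 and 7.08 FPKM in Jak2WT GLUT1/3 WT, 6.16 and 5.67 in Jak2WT dKO, 10.6 and 10.2 in Jak2V617F GLUT1/3 WT and 5.30 and 5.09 in Jak2V617F dKO. The Jak2V617F GLUT1/3 WT clones stood above all others and the Jak2V617F dKO clones below all others. Insig2, which retains SCAP as INSIG1 does, was at 9.96 and 10.9 FPKM in Jak2WT GLUT1/3 WT, 6.12 and 7.01 in Jak2WT dKO, 11.6 and 11.4 in Jak2V617F GLUT1/3 WT and 6.70 and 6.55 in Jak2V617F dKO. Its dKO clones were thus lower in either background, whereas those of Insig1 overlapped the GLUT1/3 WT clones in Jak2V617F. Scap itself passed the threshold in none of the 5 comparisons, with limma adjusted p from 0.0505 to 0.602 and 2 of the 5 at an unadjusted p under 0.05. Those 2 were positive differences with GLUT1/3 loss, 0.33 in Jak2WT and 0.22 in Jak2V617F. Of the 40 calls over all listed genes outside the 8, 11 held under every alternative tried, and 29 were lost without some library. Those that held were Pmvk, Insig2, Mbtps1 and Mbtps2 with GLUT1/3 loss in Jak2V617F, and Acat2, Dhcr7, Mvk, Nsdhl, Srebf1, Mbtps2 and Lrp8 between the backgrounds in GLUT1/3 WT clones.

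**Figure D4:**
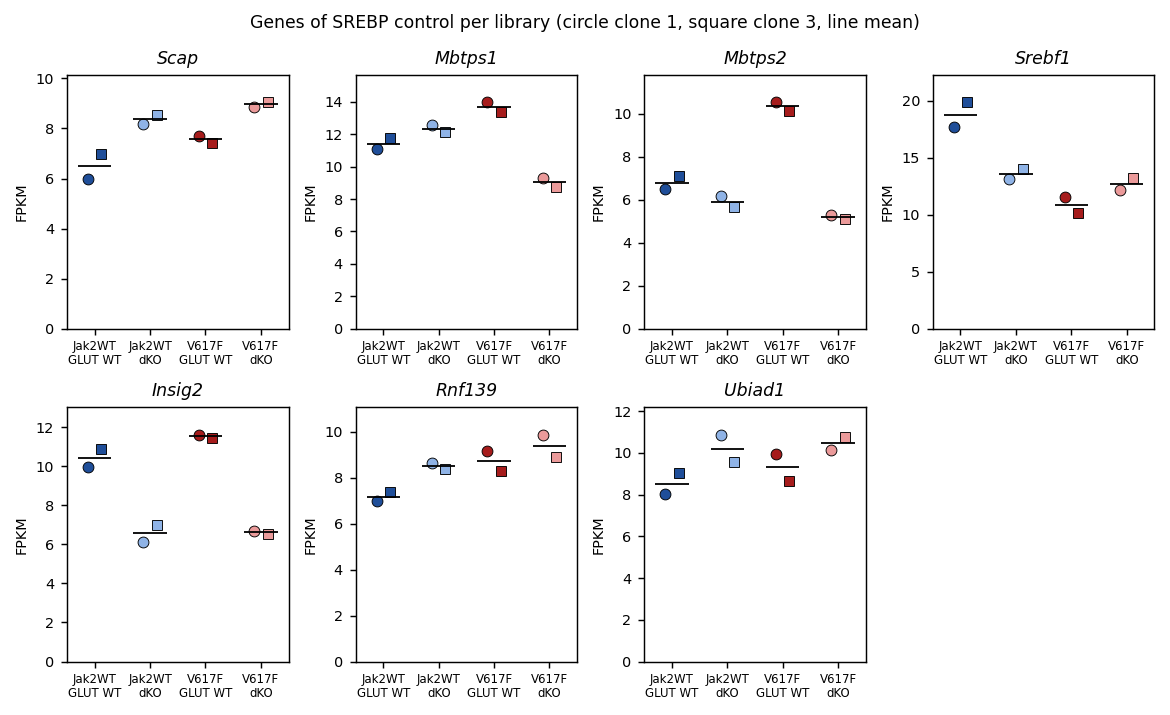
FPKM of the 7 genes of SREBP control in the 8 libraries, with circles for clone 1, squares for clone 3 and a line at the group mean. Mbtps1 and Mbtps2 are highest in Jak2V617F GLUT1/3 WT, Srebf1 is highest in Jak2WT GLUT1/3 WT, and Insig2 is lower in the dKO clones of both backgrounds.

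Genes of sterol uptake, movement and export passed the threshold a few at a time. Of 9 genes of lipoprotein uptake and sterol movement, 7 were tested. Scarb1, a receptor for high-density lipoprotein, fell by 0.62 with GLUT1/3 loss in Jak2WT (adjusted p = 0.0212), 1 of 7 lower and 0 higher, where 1 was also higher at an unadjusted p under 0.05 and 0 with limma-voom. In Jak2V617F 1 fell and 1 rose, Npc2, a lysosomal sterol carrier, at -0.41 (adjusted p = 0.0186) and the lipoprotein receptor gene Lrp8 at 0.38 (adjusted p = 0.0254), while 2 were lower and 3 higher at an unadjusted p under 0.05 and 1 and 2 with limma-voom. Between the backgrounds in GLUT1/3 WT clones 2 were lower in Jak2V617F, Lrp8 at -0.91 (adjusted p = 0.00129) and Scarb1 at -0.62 (adjusted p = 0.00964), and 1 was higher, Npc2 at 0.31 (adjusted p = 0.0465). Among dKO clones 2 were lower and 0 higher, Lipa, the lysosomal acid lipase, at -0.62 (adjusted p = 0.0193) and Lrp8 at -0.57 (adjusted p = 0.00982). Of 6 genes of sterol export, storage and the LXR receptors, 5 were tested and 0 passed in limma with GLUT1/3 loss in Jak2WT, where 1 was lower at an unadjusted p under 0.05 and with limma-voom. In Jak2V617F, Soat1, which esterifies cholesterol for storage, fell by 0.64 (adjusted p = 0.0144) and the exporter gene Abca1 fell by 0.47 (adjusted p = 0.0129). Soat1 rose by 0.60 in Jak2V617F among GLUT1/3 WT clones (adjusted p = 0.0173), and Abcg1, also an exporter gene, fell by 0.35 in Jak2V617F among dKO clones (adjusted p = 0.0398). The calls for Npc2 between the backgrounds and for Abcg1 were lost under 10 and 9 of 18 alternatives, with adjusted p of up to 0.206 and 0.158. Counts this small stand beside 6.06% of all genes lower and 7.62% higher with GLUT1/3 loss in Jak2WT, 16.2% and 13.7% in Jak2V617F, 14.9% and 15.3% between the backgrounds in GLUT1/3 WT clones and 9.96% and 7.12% among dKO clones. The medians of the 7 tested uptake genes were 0.049 and 0.028 for GLUT1/3 loss in Jak2WT and Jak2V617F, and -0.097 and -0.20 between the backgrounds in GLUT1/3 WT and dKO clones. Those of the 5 export genes were -0.18, -0.47, -0.089 and -0.084 in the same order.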

How the data were processed

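RNA of 8 libraries was sequenced as poly-A selected, paired reads of 150 bases. The authors trimmed reads with fastp 1.0.1, aligned them to mm39 with HISAT2 2.2.1, counted them per gene with featureCounts 2.0.6 and deposited FPKM, and the annotation version, the strand setting and the library total behind FPKM are not given in the sources used here. Columns were assigned to groups from the labels, and 0 were left out. FPKM times gene length was a whole multiple of 1 step per library for 100% of values within 0.01, which gave the reads per gene for limma-voom.

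The 11818 genes that reached 1 FPKM in 2 or more libraries went into limma 3.58.1 (R 4.3.3), fitted to log2(FPKM + 1) with the intensity trend and 1 mean per group, leaving 4 residual degrees of freedom and adding 3.34 from all genes. P-values are two-sided and Benjamini-Hochberg adjusted. Counts at an unadjusted p under 0.05 were made for the members and the lists and not for all genes. The limma-voom counts of all genes given beside the members apply to the lists as well. Clones of a group are separate single-cell clones, and 2 per group limit the precision more than depth does. The authors describe single-cell dilution before editing, and list the same Slc2a1 deletion for all dKO clones of a background. Clones of a background may therefore share a founder cell, which was not tested. The p-values reflect the spread between clones of a group and not between founders. Members and gene lists were chosen with earlier results of these data known. The 8 members were always named, and other listed genes were named by the largest log2 fold change past the threshold, up to 4 per list and comparison. Pmvk, Dhcr7, Mbtps2, Insig2 and Scap were described further, and Fdps named, after their values were seen. Alternatives were no filter, a filter on mean FPKM, adding 0.1 in place of 1, no trend, robust estimates, scaling to the same total or by median ratio, limma-voom, only the groups compared, the clone number as a block, and each library left out. For listed genes these were added after seeing the data. Some genes of the pathway are not reported here.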

Additional observations from a re-analysis of the deposited data

Results flagged for a closer look

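For 4 listed genes the effect of GLUT1/3 loss differed between Jak2V617F and Jak2WT by the limma interaction test, while it did so for none of the 8 members. These were 2 higher and 2 lower of the 31 listed genes tested, 6.45% each way, beside 4.72% higher and 5.91% lower of all genes, so that the count lies near that of all genes. At an unadjusted p under 0.05, 8 of the 31 were higher and 4 lower, against 4 and 2 with limma-voom, and of the 12 other synthesis enzymes 5 were higher and 0 lower, against 3 and 0. Of all genes, limma-voom called 919 higher and 895 lower, and a count at the unadjusted p was not made. The difference was 1.49 on the log2 scale for Acat2 (adjusted p = 0.0371), which stood at 21.9 and 22.8 FPKM in Jak2WT GLUT1/3 WT, 15.1 and 13.2 in Jak2WT dKO, 10.1 and 5.72 in Jak2V617F GLUT1/3 WT and 12.4 and 17.6 in Jak2V617F dKO. It was 0.65 for Srebf1 (adjusted p = 0.0324), which was at 17.7 and 19.9 FPKM in Jak2WT GLUT1/3 WT, 13.1 and 14.01 in Jak2WT dKO, 11.6 and 10.1 in Jak2V617F GLUT1/3 WT and 12.2 and 13.2 in Jak2V617F dKO. For both, dKO clones were below GLUT1/3 WT clones in Jak2WT and above them in Jak2V617F, where the change passed the threshold in Jak2V617F alone for Acat2 and in Jak2WT alone for Srebf1.

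The difference was negative for Mbtps2 at -0.70 (adjusted p = 0.0176) and for Mbtps1 at -0.65 (adjusted p = 0.0177). With GLUT1/3 loss in Jak2V617F both fell, while in Jak2WT neither passed the threshold, Mbtps1 differing by 0.10 (adjusted p = 0.402) and Mbtps2 by -0.17 (adjusted p = 0.194). The highest adjusted p over the alternatives was 0.119 for Acat2, without the filter on low values, 0.121 for Srebf1, without Jak2WT dKO clone 1, and, without Jak2WT GLUT1/3 WT clone 1, 0.0793 for Mbtps2 and 0.0813 for Mbtps1. Of 5 myeloid markers tested, 2 were lower and 0 higher in the interaction, Ptprc at -1.14 (adjusted p = 0.0124) and Csf2rb at -0.87 (adjusted p = 0.0401). The sum of the 8 myeloid markers was 196 to 201.4 FPKM in Jak2V617F GLUT1/3 WT and 89.1 to 91.8 in Jak2V617F dKO, against 219 to 247 and 160 to 197 in Jak2WT. The 7 erythroid markers tested had limma adjusted p from 0.0994 for Hbb-bt, which alone had an unadjusted p under 0.05, to 0.699 for Hbb-bs, and the erythroid sum, mostly globin, was higher in the dKO clones of both backgrounds. The part of these markers was not tested.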

How the results depend on the processing

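Over 712 alternatives for single members, 604 left the direction and the side of the threshold as reported, 34 passed the threshold where the reported value had not, 52 no longer passed and 22 changed sign. Of 13 calls of members, 3 held under every alternative (Cyp51, Lss and Insig1 between the backgrounds in GLUT1/3 WT clones), 10 were lost without some library and 7 under some other setting. Of 40 calls of listed genes, 11 held under every alternative, 29 were lost without some library and 22 under some other setting, with 0 changes of sign. For GLUT1/3 loss in Jak2WT, where 3 members were lower, the count was 0 without the filter, which tests more genes, and 6 with libraries scaled to the same total, with limma-voom and with only the groups compared. In the same order, the lower calls over all genes went from 716 to 312, 1378, 1201 and 917. Both counts are of members and genes called lower in Jak2WT dKO. It ran from 0 to 5 with 1 library left out. For GLUT1/3 loss in Jak2V617F, where 2 were lower, it was 0 without the filter, 1 without the trend, 0 with only the groups compared and from 0 to 3 with 1 library left out. Between the backgrounds, the count of 6 in GLUT1/3 WT clones ran from 3 to 7 with 1 library left out. In dKO clones the count of 2 was 1 without the filter, 4 with the same total, 4 with limma-voom and from 0 to 4 with 1 library left out. In the interaction 2 members were higher with the same total (Lss and Fdft1) and 1 with limma-voom. Lower calls over all genes for GLUT1/3 loss in Jak2V617F were 1919 as reported, 1354 without the filter, 1817 without the trend and 853 with only the groups compared. Between the backgrounds in dKO clones they were 1177 as reported, 714 without the filter, 1087 with the same total and 1422 with limma-voom. Apart from the filter and the libraries left out, the causes were not tested.

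With the clone number as a replicate block, the count was 1 for GLUT1/3 loss in Jak2V617F and 2 in Jak2WT, and stayed at 6 and 2 between the backgrounds. Deviations of clones with the same number correlated at -0.25 to 0.15 over 6 pairs of groups, so that no pairing was shown and the numbers were not used to pair clones.

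Scaling to the same total moved the median of all genes between the backgrounds in GLUT1/3 WT clones from 0.0076 to -0.12 and in the interaction from -0.039 to 0.12. It turned the split of all calls from 901 higher and 716 lower to 706 and 1378 for GLUT1/3 loss in Jak2WT, from 1614 and 1919 to 2192 and 1452 in Jak2V617F, and from 1812 and 1765 to 1223 and 2930 between the backgrounds in GLUT1/3 WT clones. It also turned Insig1 with GLUT1/3 loss in Jak2V617F to 0.029. In the interaction the split went from 558 and 698 to 1177 and 393.

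With 1 library left out, values near 0 changed sign, none of them past the threshold. For GLUT1/3 loss in Jak2WT, Idi1 ran from -0.15 to 0.080. For GLUT1/3 loss in Jak2V617F, Insig1 ran from -0.28 to 0.17, Idi1 from -0.21 to 0.33, Fdft1 from -0.10 to 0.20 and Lss from -0.064 to 0.079. Idi1 ran from -0.21 to 0.040 between the backgrounds in GLUT1/3 WT clones and from -0.27 to 0.28 in dKO clones. In the interaction the median of the members ran from -0.032 to 0.36, Srebf2 from -0.034 to 0.29, Insig1 from -0.031 to 0.43, Idi1 from -0.18 to 0.36, Sqle from -0.13 to 0.26 and Cyp51 from -0.058 to 0.24. Where a group keeps 1 clone, that clone is assumed to vary like the other groups. In the comparisons between groups, the calls over all genes, both directions together, also fell when a library of the groups compared was left out.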

Other observations

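Among the 5 genes outside the lists whose levels were most like the mean of the 8 members over the 8 libraries were Atp6v1a (Pearson r 0.986), a subunit of the vacuolar proton pump, Mmd (0.978), Ptch1 (0.977), the Hedgehog receptor, and a, the nonagouti gene (0.977). Atp6v1a stood at 32.1 and 31.9 FPKM in Jak2WT GLUT1/3 WT, 25.8 and 24.4 in Jak2WT dKO, 23.9 and 21.5 in Jak2V617F GLUT1/3 WT and 19.0 and 20.3 in Jak2V617F dKO. Of 11767 genes compared, 184 reached an r of at least 0.9, and the 8 points share 4 groups and the scaling of each library.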
